A study of Homo sapiens with 8 samples.

Results

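The 8 cyclin-dependent kinase inhibitor genes CDKN1A, CDKN1B, CDKN1C, CDKN2A, CDKN2B, CDKN2C, CDKN2D and CDKN3 were read on 8 two-colour expression arrays, through 11 of the 58201 probes, or 8 of the 43317 genes, that each array held besides controls. The genes were chosen by name from the array's own annotation, and they were proposed with earlier readings of their treated over mock ratios and mock levels on these same arrays in view. Their ratios and levels are therefore a description, and no value of theirs was tested. Each array paired Cy3-labelled RNA of mock cells with Cy5-labelled RNA of treated cells of the same line. The mock cells are listed as not transfected, so nothing in the labels gives them a control miRNA or the solvent of bisamide.

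The 8 groups held 1 array each. PC3, a cell line of castration-resistant prostate cancer, was given bisamide, a small molecule known as a ligand of the iron-binding nuclear protein pirin, for 24 h in one group and for 48 h in another, and miR-125b-1-3p in another. C4-2, derived from the prostate cancer line LNCaP, received miR-199-3p. 786-O, a clear cell renal carcinoma line, received miR-532-5p or miR-532-3p, which are the opposite strands of 1 precursor. T24, a bladder carcinoma line, received miR-140-5p or miR-140-3p, again the strands of 1 precursor. Each treatment was hybridised once and always in Cy5, so an effect of dye and an effect of treatment cannot be told apart on an array. Precision is limited by the number of arrays.

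Cyclin-dependent kinases (CDKs) drive a cell from one phase of the cycle to the next once a cyclin binds them, and the inhibitors hold them back. The CIP/KIP proteins p21 (CDKN1A), p27 (CDKN1B) and p57 (CDKN1C) bind the cyclin and the kinase together and act on several CDKs. The INK4 proteins p16 (CDKN2A), p15 (CDKN2B), p18 (CDKN2C) and p19 (CDKN2D) bind CDK4 and CDK6 alone and so keep the retinoblastoma protein active. CDKN3 is a phosphatase that removes the activating phosphate from CDK2, and its RNA is known to be high in dividing cells. CDKN2A and CDKN2B lie side by side on the short arm of chromosome 9, a stretch that is often deleted in carcinomas of the kidney and bladder.

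The transfected strands are shown because a miRNA recognises its targets mainly through its seed, bases 2 to 8, given here in capitals in the RefSeq mature sequences. The labels do not say whether miR-199-3p was made from the a or the b gene, and the mature strand of both has the same bases. No pair of the 6 strands shared a seed.

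miR-125b-1-3p: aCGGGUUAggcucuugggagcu

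miR-199a-3p and miR-199b-3p: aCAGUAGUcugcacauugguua

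miR-532-5p: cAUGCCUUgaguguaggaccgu

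miR-532-3p: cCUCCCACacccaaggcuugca

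miR-140-5p: cAGUGGUUuuacccuaugguag

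miR-140-3p: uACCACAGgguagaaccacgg

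The arrays differed in brightness by cell line. Over the 12744 genes well above background in all mock channels, the median raw Cy3 signal was 184 to 195 in PC3, 157 and 162 in T24, 87.1 in C4-2, and 87.3 and 86.2 in 786-O. Background correction added an offset of 50 to every signal, which shrinks ratios the more the dimmer the probe, so ratios in C4-2 and 786-O were shrunk more than those in PC3 at the same level. Of the marker genes read, all 6 of prostate luminal cells were well above background in mock C4-2 and 3 of 6 in mock PC3, where KLK3, KLK2 and FOLH1 were not. Of 6 renal tubule markers, 5 were well above background in 786-O. In T24 only 2 of 6 urothelial markers were, UPK1A and PPARG, and UPK1B, UPK2, UPK3A and GATA3 were not, while 4 of 6 renal tubule markers were. The 3 PC3 mock arrays had a median SD of 0.08 on the log2 level scale over 17772 genes, the nearest thing here to a replicate error. Codes in the names of the deposited files, though no label, give the same mock RNA to both 786-O arrays and to both T24 arrays, so agreement within these pairs may be technical.

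On every array 7 of the 8 members were well above background in both channels, which gave 56 measured values, counting a gene by its brightest probe. CDKN1A was the missing member on the 3 PC3 arrays and CDKN2B on the other 5. The 56 log2 ratios of treated over mock ran from -1.12 to 1.31 with a median of 0.06, beside a median of 0.01 over all measured genes of the arrays. Of them, 32 lay above 0 and 24 below. A log2 ratio past 0.5 in size was taken as the mark for describing a member as higher or lower than mock. By that mark 7 values were higher and 5 were lower. In the scanner's own ratio, which has no offset, 11 were higher and 7 lower, and the 6 values added were those of CDKN1A with miR-199-3p and miR-532-3p, CDKN1B, CDKN2A and CDKN2D with miR-532-5p, and CDKN1C with miR-140-5p.

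Only the counts from the ratio with the offset are set beside the share of all measured genes past the same mark, read with that offset too. No such share is given for the scanner's ratio, so its counts have none beside them. Over the 8 arrays together 1.65% of 138908 gene values were higher and 1.95% were lower. At a mark of 1.0 the members had 1 higher and 1 lower value, against 0.143% and 0.238% of all gene values. At 1.5, the size used in the study, no member value passed in either direction, against 0.0266% and 0.0518% of all gene values. The values nearest the mark of 0.5 were 0.55 for CDKN1B with miR-532-3p and -0.54 for CDKN2C with bisamide for 48 h on its far side, and -0.49 for CDKN2D with miR-532-5p and 0.41 for CDKN1C with miR-140-5p on its near side.

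By array, with bisamide for 24 h CDKN2B was higher while CDKN2C and CDKN3 were lower, against 1.05% of genes higher and 0.4% lower. With bisamide for 48 h CDKN2C and CDKN3 were lower and no member was higher, against 0.878% lower and 0.915% higher. With miR-125b-1-3p in PC3 CDKN1C alone was higher and none was lower, against 1.77% and 0.883%. With miR-199-3p in C4-2 none of 7 members passed in either direction, against 1.76% of genes higher and 2.73% lower. In 786-O, miR-532-5p gave CDKN1C higher and CDKN3 lower, against 3.6% and 3.67%, and miR-532-3p gave CDKN1B and CDKN1C higher and none lower, against 1.71% and 3.84%. In T24, miR-140-5p gave CDKN2D higher and none lower, against 1.74% and 2.89%, and miR-140-3p gave CDKN2C higher and none lower, against 0.998% and 1.09%. With 7 members an array these counts are small, and they are given as counts only.

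**Figure D1:**
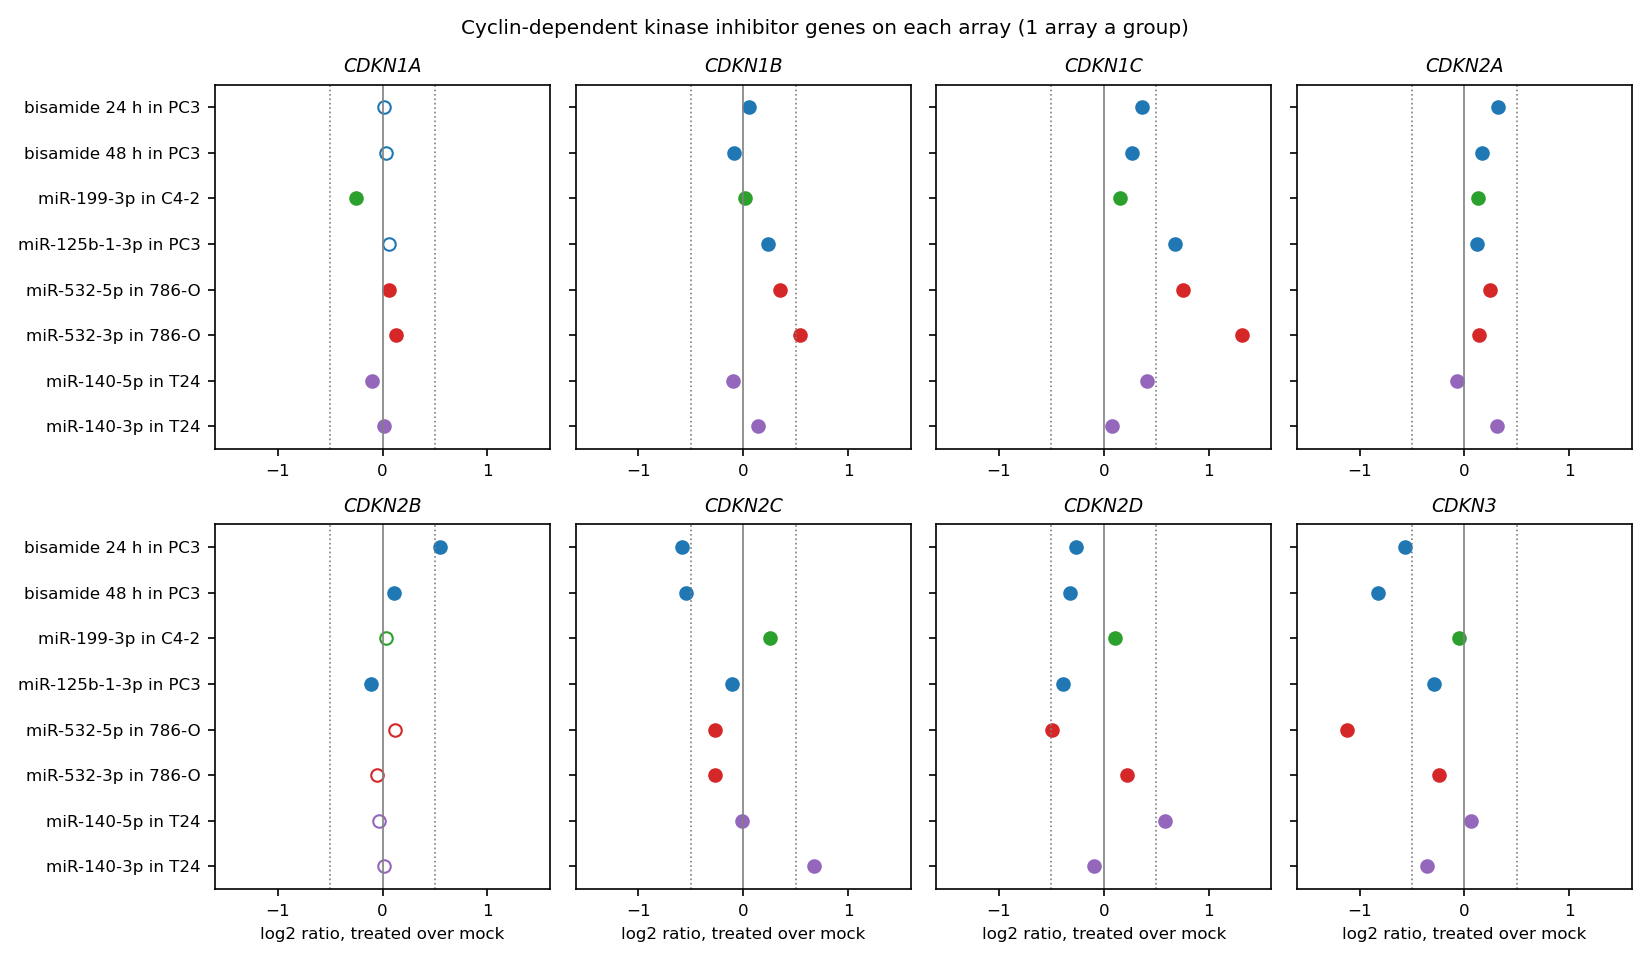
Log2 ratio of treated over mock RNA (x axis) on each of the 8 arrays (y axis) for each gene, 1 point an array, coloured by cell line. Open points were not well above background in both channels and dotted lines mark 0.5 on either side of 0. CDKN1C sits above 0 on all 8 arrays. CDKN3 sits below 0 on 7 under the loess shown but on 2 if arrays are centred on their median. Once the median of measured genes is taken off, CDKN3 is below 0 on 5.

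CDKN1C, the p57 gene, had the highest value of the 8 members and a log2 ratio above 0 on all 8 arrays, under loess and under median centring alike. Its single probe lies at chr11:2904903-2904962 (GRCh37, minus strand). In 786-O with miR-532-3p the raw signal was 107 in mock and 398 in treated cells, a log2 ratio of 1.31, or 2.49-fold. With miR-532-5p, measured against mock RNA of the same code, the raw signals were 113 and 186 and the log2 ratio was 0.75. The 786-O pair was thus the highest of the 8 arrays for this gene under loess, and miR-532-3p read above miR-532-5p in each setting of the ratio tried.

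In PC3 the CDKN1C log2 ratio was 0.68 with miR-125b-1-3p, 0.37 with bisamide for 24 h and 0.27 with bisamide for 48 h. The mock levels of the 3 arrays differed too, at 8.94, 8.39 and 8.61 on the log2 scale in that order, with an SD of 0.28. The treated level with miR-125b-1-3p, 9.62, lay above all 3 mocks, while the treated levels with bisamide, 8.76 and 8.88, lay among them. Elsewhere the log2 ratio of CDKN1C was 0.15 with miR-199-3p, 0.41 with miR-140-5p (0.71 in the scanner's ratio) and 0.08 with the 3p strand. Measured against the median of this gene over the other 7 arrays, the excess was 0.95 on the array of miR-532-3p, 0.39 on that of miR-532-5p and 0.32 on that of miR-125b-1-3p.

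CDKN1B, the p27 gene, was read by a probe at chr12:12874940-12874999 and a dimmer one at chr12:12871119-12871178 (GRCh37, plus strand). With miR-532-3p the brighter probe had raw signals of 65.4 in mock and 132 in treated cells and a log2 ratio of 0.55, and the dimmer probe had a log2 ratio of 0.28, short of the mark. With miR-532-5p the probes gave 0.35 and 0.18, the first being 0.72 in the scanner's ratio. Both probes were thus above 0 in 786-O, by different amounts. On the other arrays the brighter probe ran from -0.09 with miR-140-5p to 0.23 with miR-125b-1-3p. The probes had the same sign on 6 of 8 arrays, and they differed by up to 0.27.

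CDKN1A, the p21 gene, was dim wherever it was measured, and whether it passed the mark turned on the offset. Its probe, at chr6:36652178-36652237 (GRCh37, plus strand), lies in coding sequence. It is printed because the PC3 mock signal, not well above background, rests on it alone.

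CDKN1A probe: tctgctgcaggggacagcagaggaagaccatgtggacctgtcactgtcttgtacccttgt

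The measured log2 ratios of CDKN1A were -0.25 with miR-199-3p in C4-2, 0.06 with miR-532-5p and 0.13 with its 3p strand in 786-O, and -0.10 with miR-140-5p and 0.01 with its 3p strand in T24. None passed the mark with the offset of 50. In the scanner's ratio CDKN1A was -0.51 with miR-199-3p in C4-2 and, in 786-O, 0.55 with miR-532-3p, both past it, and plain background subtraction gave -0.53 and 0.52. In PC3 the mock signal of the probe was not well above background on any of the 3 arrays, at raw values of 23.5, 21.3 and 22.4. Treated PC3 cells reached the flag with bisamide for 24 h and with miR-125b-1-3p, at raw values of 24.1 and 23.0, but not with bisamide for 48 h, at 19.3. The first of these allowed only a bound of at least 1.01-fold and the second none.

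Of the INK4 genes, CDKN2C (p18) had the widest span of the members measured on all 8 arrays, 1.26 on the log2 scale. Its probe lies at chr1:51439963-51440022 (GRCh37, plus strand). With miR-140-3p in T24 the raw signals were 173 in mock and 480 in treated cells, a log2 ratio of 0.67 or 1.59-fold, while miR-140-5p in the same line gave -0.01. In PC3 the log2 ratios were -0.58 with bisamide for 24 h and -0.54 for 48 h under loess, but 0.03 and 0.08 when arrays were centred on their median. Both treated levels with bisamide, 7.62 and 7.85, lay below the 3 PC3 mock levels of 8.21, 8.39 and 8.71, whose SD was 0.26. With miR-125b-1-3p the value was -0.10, with each of the miR-532 strands -0.27, and with miR-199-3p 0.26. Under median centring the gene was above 0 on 7 of 8 arrays, against 2 under loess. Once the median of the measured genes was taken off, it was above 0 on 4 and below 0 on 4.

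The genes whose ratios ran most like those of CDKN2C were ARRB2, DCLRE1B and RP9P, with Pearson's r of 0.99, 0.98 and 0.97 over the 8 arrays and Spearman's rho of 0.98 each. They were picked as the highest of 9620 named genes measured in both channels throughout, 20 of which had an r above 0.9. The 8 points share dye orientation, 3 share a cell line and others share mock RNA, so the r values describe these arrays. The span of ARRB2, from -0.12 to 0.25, was narrower than that of CDKN2C.

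CDKN2D (p19), read at chr19:10677226-10677285 (GRCh37, minus strand), was higher than mock on 1 array. With miR-140-5p in T24 the raw signals were 441 in mock and 1125 in treated cells, a log2 ratio of 0.59 or 1.5-fold. With miR-140-3p the value was -0.09. CDKN2C and CDKN2D thus each passed the mark with 1 strand of miR-140, and not the same strand. CDKN2D was below 0 on the 3 PC3 arrays under loess, and none of these values passed the mark. They were -0.26 and -0.33 with bisamide for 24 h and for 48 h and -0.39 with miR-125b-1-3p. Under median centring CDKN2D was above 0 on 7 of 8 arrays, and on 5 once the median of the measured genes was taken off. In 786-O it was -0.49 with miR-532-5p (-0.55 in the scanner's ratio) and 0.23 with miR-532-3p, and in C4-2 it was 0.11.

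CDKN2B (p15) was measured in both channels in PC3 only, by a probe at chr9:22008979-22009038 (GRCh37, minus strand). With bisamide for 24 h the raw signals were 43.1 in mock and 107 in treated cells, a log2 ratio of 0.55 with the offset of 50 and 1.15 in the scanner's own ratio, which has no such offset. With bisamide for 48 h the log2 ratio was 0.11 and with miR-125b-1-3p it was -0.11. The treated level at 24 h, 6.72, lay above the 3 PC3 mock levels of 6.17 to 6.22. With miR-532-5p in 786-O the treated channel alone was well above background, at a raw value of 24.3 against 22.9, which allowed a bound of at least 1.09-fold.

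CDKN2A had the narrowest span of the INK4 genes measured on all 8 arrays in the main processing, with log2 ratios from -0.07 with miR-140-5p to 0.32 with bisamide for 24 h and a median of 0.15. With miR-532-5p in 786-O, where the probe was dim, it was 0.24 with the offset of 50 but 0.84 in the scanner's ratio, 0.65 with plain subtraction and 0.64 with an offset of 0, all past the mark. None of its values passed the mark with the offset of 50, and 7 of 8 lay above 0 under loess and all 8 under median centring. A brighter probe lies at chr9:21968039-21968098 and a dimmer one at chr9:21970901-21970960 (GRCh37, minus strand), and the array's annotation lists the same 4 transcript variants for each of them. RNA for p16INK4a and for p14ARF, which the locus encodes in different frames of a shared exon, was therefore not told apart. Where both probes were measured, on 6 arrays, they differed by at most 0.20 and had the same sign on 5.

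CDKN3 was below 0 on 7 of 8 arrays under loess, on 2 under median centring and on 5 once the median of the measured genes was taken off, and it had the lowest value of the 8 members. Its brighter probe spans chr14:54878384-54882635 (GRCh37, plus strand), a stretch longer than the probe itself, so it crosses at least 1 splice junction. The dimmer probe lies at chr14:54866634-54866693. With miR-532-5p in 786-O the raw signals of the brighter probe were 365 in mock and 128 in treated cells, a log2 ratio of -1.12 or 2.18-fold lower, and the dimmer probe gave -0.62. With miR-532-3p in the same line they gave -0.25 and -0.17. CDKN3 was thus past the mark with 1 strand of miR-532 and short of it with the other, and the difference between them was not tested.

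In PC3 the brighter CDKN3 probe gave -0.57 with bisamide for 24 h and -0.82 for 48 h under loess, but 0.21 and -0.06 when arrays were centred on their median, and the dimmer probe gave -0.39 and -0.57. The treated levels, 9.72 and 9.37, lay below the 3 mock levels of 10.17, 10.19 and 10.29. With miR-125b-1-3p the brighter probe gave -0.29. The remaining values of CDKN3 were -0.05 with miR-199-3p, 0.06 on the T24 array of miR-140-5p and -0.35 on that of the 3p strand. Both probes had the same sign on all 8 arrays, and they differed by up to 0.51.

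**Figure D2:**
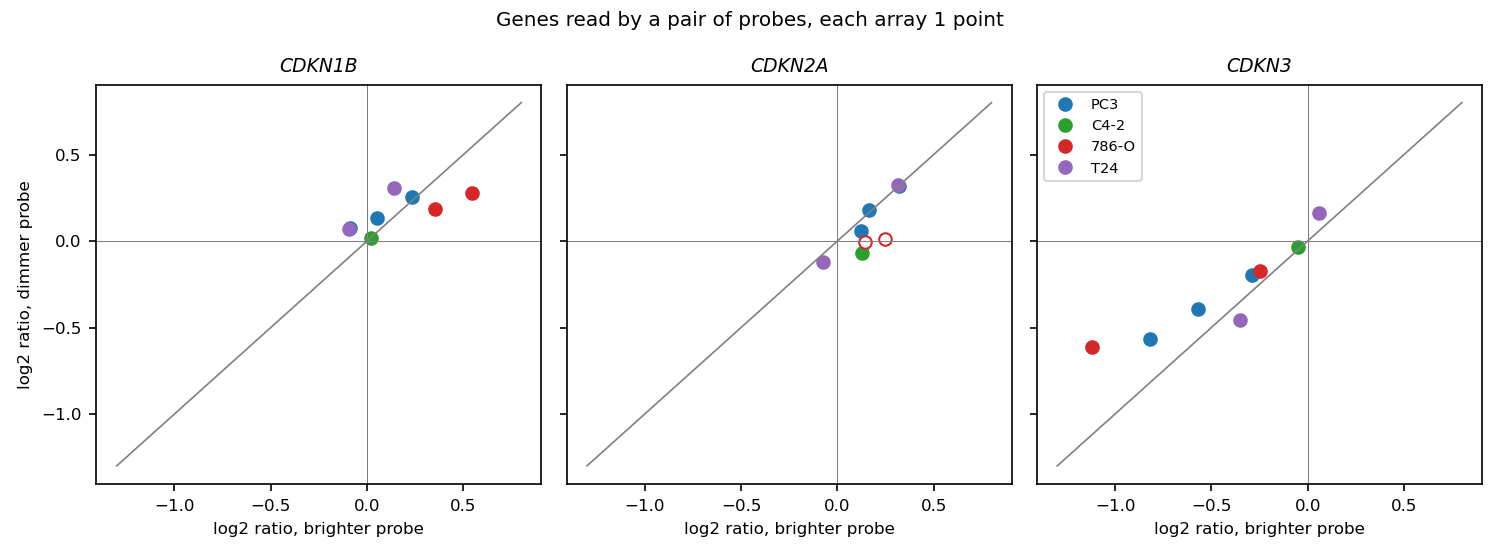
Log2 ratio of the dimmer probe (y axis) against the brighter probe (x axis) for the 3 genes read by a pair of probes, each point 1 array, coloured by cell line, with the line of equal values in grey. Open points have a probe not well above background in both channels. The CDKN3 probes keep the same sign on all 8 arrays, and the brighter probe reads -1.12 where the dimmer reads -0.62.

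Of the settings tried, only median centring turned the direction of a value past the mark. Loess brings the ratio to 0 along the range of brightness, whereas median centring moves all probes of an array by a single amount. Under median centring the measured genes of an array had a median of 0.17 to 0.45 on 7 arrays and of -0.03 with miR-532-5p. The members then had 27 values higher and 2 lower past 0.5, or 12 higher and 2 lower once that median was taken off. No share of all measured genes is given for median centring, so these counts describe the shift and not the members. Relative to the median of the measured genes the bisamide values were -0.42 and -0.35 for CDKN2C and -0.24 and -0.49 for CDKN3. All were below 0 and short of the mark. The values of CDKN1C with miR-532-3p, of CDKN2C with miR-140-3p, of CDKN2D with miR-140-5p and of CDKN3 with miR-532-5p stayed past the mark in the same direction in every setting of the ratio tried. CDKN2B with bisamide for 24 h did so too, except at 0.42 under median centring less the median of the measured genes. Settings that alter only the filter on dim probes left these values unchanged, and the series table repeated the scanner's ratio. The mean over probes could not change a gene with a single probe.

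**Figure D3:**
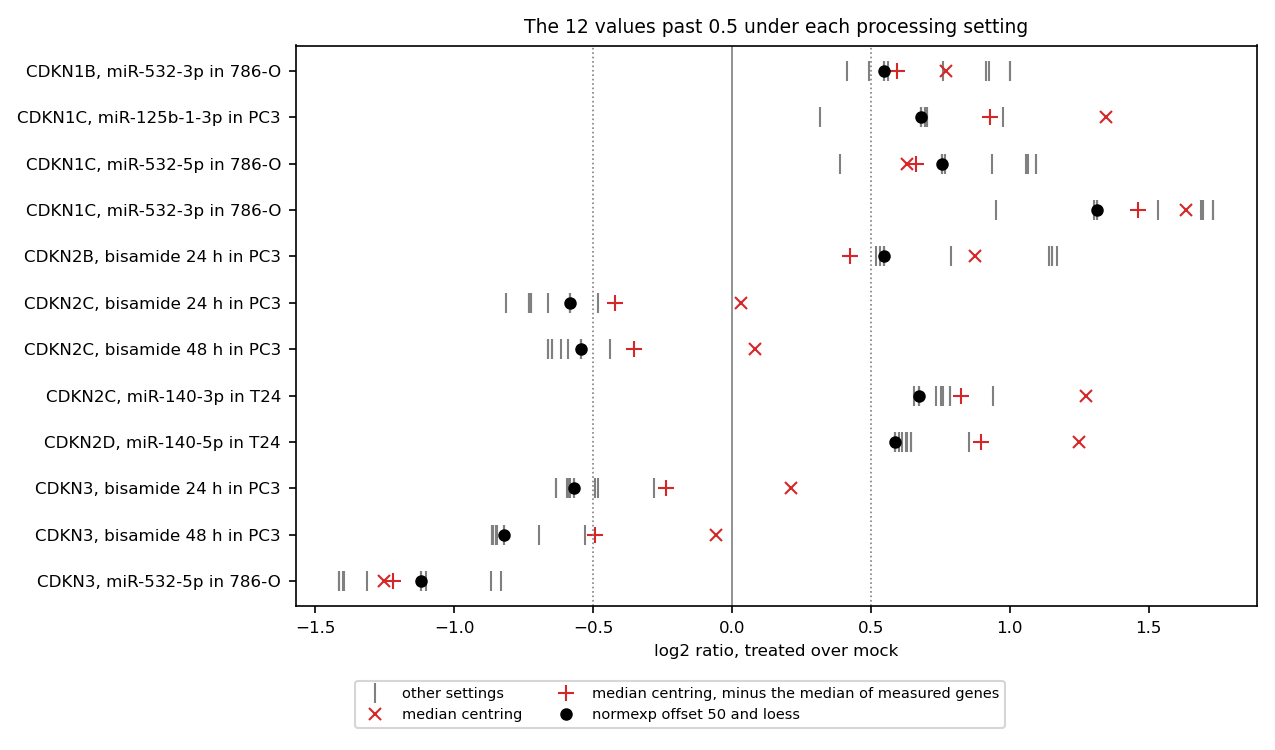
Log2 ratio of treated over mock (x axis) for the 12 values past 0.5 (y axis), with black circles for the main processing, red crosses for median centring, red plus signs for median centring less the median of the measured genes, and grey ticks for 10 other settings. CDKN3 with miR-532-5p ranges from -1.41 to -0.83 over the settings, while CDKN2C and CDKN3 with bisamide for 24 h reach 0.03 and 0.21 under median centring.

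The mock cells of the 4 lines differed by up to 4.28 on the log2 scale at a member, where the largest ratio on an array was 1.31. Mock levels are Cy3 levels on the log2 scale after loess and scaling between arrays, each probe compared only with itself, and they describe 3 PC3 arrays, 1 C4-2 array, 2 786-O arrays and 2 T24 arrays. In each line 7 of 8 members were well above background on every mock array. The exceptions were CDKN1A in PC3 and CDKN2B in the other 3 lines.

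CDKN2A had the widest difference between lines. Its brighter probe had raw signals of 2217, 2557 and 2356 in PC3, of 839 and 912 in T24, of 304 in C4-2, and of 43.5 and 43.2 in 786-O. The 4 lines did not overlap, and mock PC3 was 19.4-fold above mock 786-O, or 4.28 on the log2 scale. The size depends on the scale, at 45.9-fold with signals set against each array's 75th percentile and 40.3-fold with an offset of 0. The dimmer probe had the same order, with raw signals of 515 to 607 in PC3 and of 22.4 and 22.0 in 786-O, where it was not well above background in either channel of either array. It lies in coding sequence and is printed because the 786-O signal that is not well above background rests on it.

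CDKN2A dimmer probe: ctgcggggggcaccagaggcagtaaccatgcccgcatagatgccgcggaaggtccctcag

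Against the dimmer probe in 786-O, mock PC3 was at least 8.45-fold, T24 at least 4.07-fold and C4-2 at least 3.03-fold higher. In 786-O CDKN2A thus had a low signal through 1 probe and none well above background through the other. An array of RNA reads a deleted gene and a silent gene alike, so these cannot be told apart here.

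CDKN2B, next to CDKN2A, had mock raw signals of 43.1, 43.8 and 43.1 in PC3. In the other 3 lines they ran from 21.7 to 24.02 and were not well above background, which put PC3 at least 1.20-fold above C4-2, 1.28-fold above 786-O and 1.25-fold above T24. The bounds are small because PC3 itself was dim. The neighbours on the same stretch were read for comparison. MTAP, an enzyme of methionine salvage, was well above background in mock cells of all 4 lines through each of its 3 probes, its brightest probe at 119 and 123 in 786-O, 222 and 228 in T24, 54.0 in C4-2 and 523 to 777 in PC3. DMRTA1, on the other side, was well above background in PC3, 786-O and T24 but not in C4-2, where its raw signal was 19.4. CDKN2B-AS1, the antisense RNA of the locus, was well above background in mock PC3 on all 3 arrays through its brightest probe, at 28.2 to 36.4. Through that probe no other line was well above background, though both T24 arrays passed the scanner's weaker flag of significance. A second of its probes was well above background in PC3 on all 3 arrays and on 1 of 2 T24 arrays. A further one was so on 1 of 3 PC3 arrays and the last in no line, so the contrast rests on the probe.

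CDKN1C mock levels followed another order. The raw signal was 909 in C4-2, 371, 414 and 587 in PC3, 113 and 107 in 786-O and 59.8 and 64.7 in T24, so that C4-2 stood 19.0-fold above T24 on the main scale, 42.4-fold over the 75th percentile and 39.0-fold with an offset of 0. The 4 lines did not overlap, but PC3 and 786-O came within 0.29 on the log2 scale, near the SD of 0.28 among the PC3 mocks.

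CDKN1B was highest in C4-2 through both probes, by 4.54-fold over PC3, the lowest line, through the brighter probe and 7.19-fold through the dimmer. Over the 75th percentile these were 6.88-fold and 15.2-fold. T24 and 786-O overlapped through the dimmer probe and were 0.31 apart through the brighter, so their order is not settled. CDKN1A had raw signals of 63.8 in C4-2, of 66.0 and 67.0 in T24 and of 37.1 and 32.5 in 786-O. After scaling between arrays C4-2 was the highest line, 0.44 above T24 on the log2 scale, so the order of these lines rests on the scaling. Over PC3, CDKN1A was at least 2.52-fold higher in C4-2, 1.85-fold in T24 and 1.51-fold in 786-O.

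CDKN2C, CDKN2D and CDKN3 were measured in mock cells of every line. CDKN2C was highest in 786-O and PC3, which overlapped, and lowest in C4-2, 1.92-fold below 786-O. CDKN2D was highest in C4-2 and lowest in T24, 2.97-fold apart, with no overlap between lines. CDKN3 was highest in PC3 and lowest in T24, 2.08-fold apart, and C4-2 and 786-O lay within 0.06 of each other and changed places under another scaling.

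**Figure D4:**
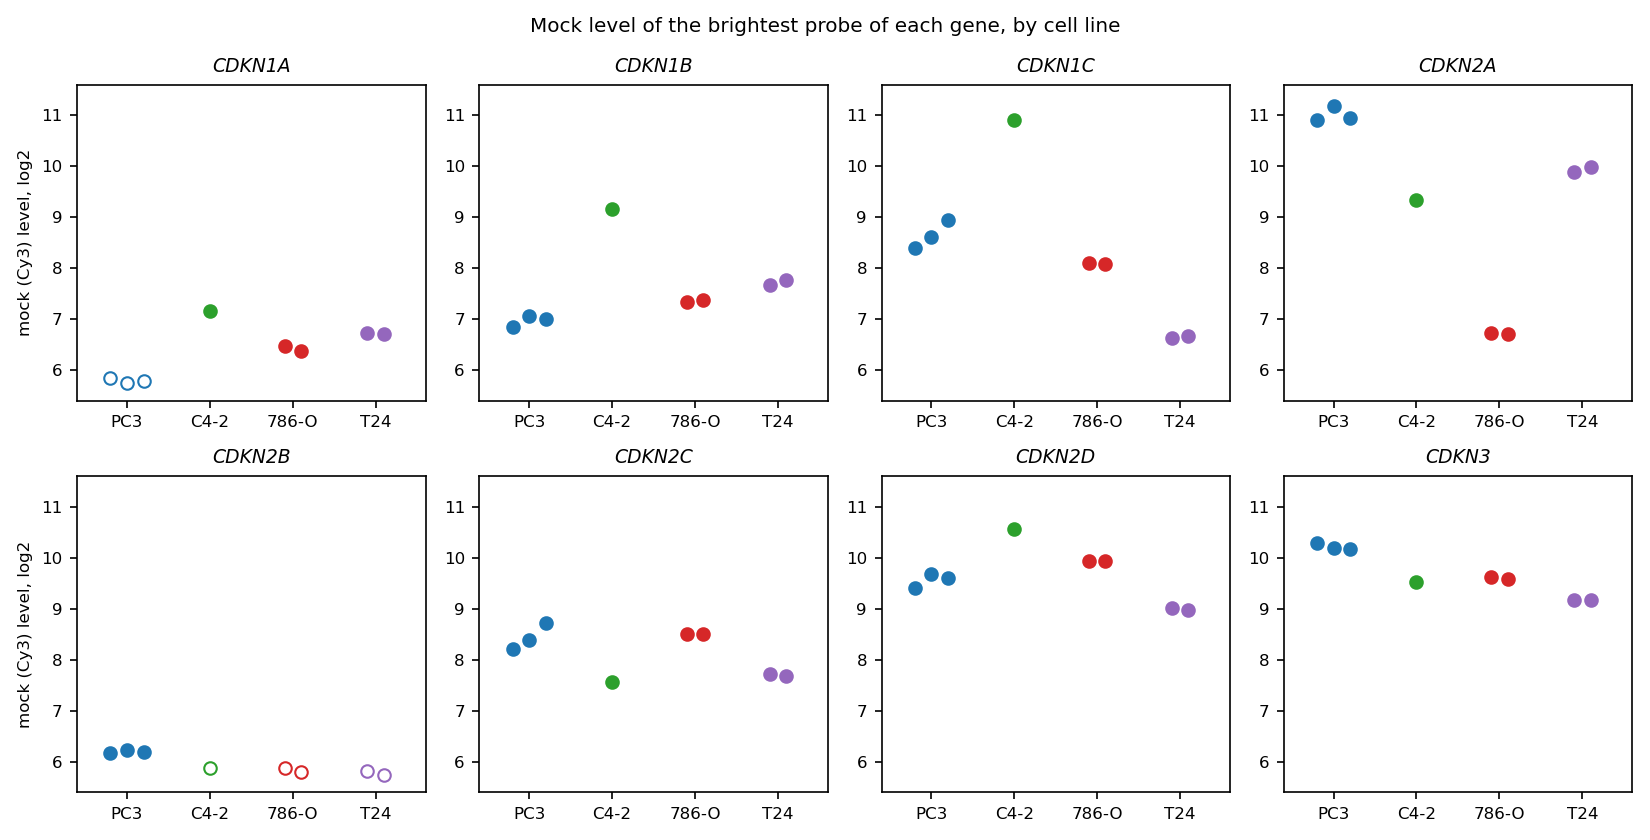
Mock (Cy3) level on the log2 scale (y axis) of the brightest probe of each gene by cell line (x axis), each point 1 array, with open points for signals not well above background. CDKN2A in 786-O lies 4.28 below PC3, and CDKN1C falls from C4-2 to T24. CDKN2B is well above background in PC3 alone, and CDKN1A is well above background in all lines but PC3.

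Genes that work with the inhibitors were read as lists written from general knowledge. Of 16 cyclins and kinases, 14 or 15 were measured on an array. With bisamide for 24 h 2 of 15 were lower, beside 0.4% of all measured genes, CCNE2 at -0.77 and CDK1, the kinase of mitosis, at -0.59, and the list median was -0.32, or 0.37 under median centring. With bisamide for 48 h 4 of 15 were lower, beside 0.878%, CCNA2, CCNB1, CCNB2 and CDK1, the last at -0.87, with a list median of -0.15, or 0.46 under median centring. Under median centring no cyclin or kinase was lower past the mark on either bisamide array, but all measured genes then had medians of 0.45 and 0.44. Before those medians were taken off, CCNE2 was at -0.16 for 24 h and CDK1 at -0.11 for 48 h. Each lay below the median of its array by more than the mark. Less those medians, the list medians were -0.08 and 0.02. That shift, a median of 0.17 to 0.45 on every array but that of miR-532-5p, also enters the median-centred values of the lists below. With miR-532-5p 4 of 14 were lower, beside 3.67%, CCNB1, CCND1, CCNE1 and CDK1, and the list median was -0.39, or -0.48 under median centring, where 7 of 14 were lower. On all 3 of these arrays CDKN3 was past the mark under loess too.

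With miR-532-3p 2 of 14 cyclins and kinases were higher, beside 1.71% of all measured genes, CCNE1 at 0.58 and CDK6 at 1.11, and none was lower. CDK6 is a kinase that the INK4 proteins bind. With miR-199-3p CCND1 and CDK6 were higher, at 0.52 and 0.70 (2 of 14, beside 1.76%), and CDK7 was lower, at -0.74 (1 of 14, beside 2.73%). CDK7 was -0.28 under median centring, where all measured genes of that array had a median of 0.30. CCNE2 alone of 14 was higher with miR-140-3p, at 0.57, beside 0.998%. With miR-125b-1-3p and miR-140-5p no member of the list passed in either direction.

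Of 13 pocket proteins and E2F factors, RB1, the retinoblastoma gene through which the INK4 proteins act, was lower on 3 arrays, with log2 ratios of -1.54 for miR-199-3p, -0.55 for miR-532-3p and -0.56 for miR-140-5p under loess, of which only the first stayed past the mark under median centring, at -1.21, while the others became -0.21 and 0.12. E2F2 was lower at -0.62 with bisamide for 24 h, at -0.96 with miR-532-5p and at -0.67 with miR-140-5p under loess, and at -0.04, -1.06 and 0.01 under median centring. E2F1 was lower with miR-125b-1-3p and miR-532-5p, at -0.63 and -0.57 under loess and -0.05 and -0.67 under median centring. The list thus had 1 or 2 of 12 or 13 genes lower on 6 arrays under loess and on 2 under median centring, beside 0.4% to 3.84% of all measured genes on those arrays under loess. The values higher than mock were E2F6 at 0.90 with miR-532-5p and at 0.68 with the other strand, and E2F7 with miR-532-5p, at 0.65, or 2 of 13 on that array beside 3.6% and 1 of 13 on the other beside 1.71%.

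Of 11 genes for turnover of the inhibitors, all measured, 1 passed the mark on each of 3 arrays and none on the other 5. These were CKS2 at -0.66 with bisamide for 48 h, CKS1B at -0.61 with miR-199-3p, and CDC20 at -0.81 with miR-532-5p, beside 0.878%, 2.73% and 3.67% of all measured genes. Under median centring CKS2 was 0.19 and CKS1B 0.16, and CDC20 alone stayed past the mark, at -0.94. SKP2, the ubiquitin ligase subunit that marks p27, was on none of them past the mark. Of 13 regulators of the INK4 locus only ID1 passed the mark, higher with bisamide for 48 h at 0.58 and lower at -0.57 with miR-532-3p and, in T24, at -0.88 with miR-140-5p and -0.58 with its 3p strand, beside 3.84%, 2.89% and 1.09% of all measured genes lower and 0.915% higher with bisamide for 48 h. None of the 3 lower values of ID1 held under median centring, where they were -0.06, 0.07 and 0.40, and the higher one was 1.36. Its PC3 mock level ranged from 9.67 to 12.48 between the 3 arrays.

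The bases upstream of CDKN3 and CDKN2D are shown because these genes are among those past the mark in 786-O or T24 and because each window holds a motif found in no other member's window searched. CDKN1C, the member with the highest value, was not searched here. For the other 7 members at least 1 RefSeq start was at hand (GRCh38.p14), and 250 bases before each start were searched on both strands. TTTGAA, the core of the cell cycle homology region of mitotic genes, was found before CDKN3 alone and in 13.3% of 35116 windows of all genes. CCAAT, the motif of the factor NF-Y, was found before CDKN1B, 1 of 3 starts of CDKN2C, CDKN2D and CDKN3, and in 32.0% of windows. TTTNNCGC, a loose form of the E2F motif, was found before CDKN2D alone and in 5.92% of windows. GGCGGG, the core of the SP1 motif, was found before 6 members and in 42.5% of windows. The motifs in capitals below are the CCAAT and TTTGAA matches for CDKN3 and the CCAAT and TTTNNCGC matches for CDKN2D, on either strand, and none of the matches in these windows overlapped another. A match is a description of these letters and not a binding site.

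CDKN3, chr14:54396757-54397006, plus strand: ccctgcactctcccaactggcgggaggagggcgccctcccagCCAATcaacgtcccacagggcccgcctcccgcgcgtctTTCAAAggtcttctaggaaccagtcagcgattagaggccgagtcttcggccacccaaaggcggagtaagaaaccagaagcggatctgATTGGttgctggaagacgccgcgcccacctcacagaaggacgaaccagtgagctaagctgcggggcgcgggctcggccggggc

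CDKN2D, chr19:10568980-10569229, minus strand: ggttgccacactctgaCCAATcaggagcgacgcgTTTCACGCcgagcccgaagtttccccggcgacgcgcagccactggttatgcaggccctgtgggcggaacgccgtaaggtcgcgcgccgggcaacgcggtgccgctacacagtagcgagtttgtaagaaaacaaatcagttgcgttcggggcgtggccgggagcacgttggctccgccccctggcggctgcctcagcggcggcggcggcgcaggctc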

How the data were processed

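Spot signals came from Agilent's Feature Extraction software, version 11.5.1.1 per the file headers. The deposited files give, per spot, mean and local background intensity in each channel on a linear scale, not normalized, and a log10 ratio of Cy5 over Cy3 after the scanner's own background and dye correction. The log10 ratio in the deposited series table was identical to it. Coordinates are those of GRCh37.

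Intensities were corrected with normexp (offset 50) and normalized within each array by loess (span 0.3) in limma 3.58.1 (R 4.3.3). The offset shrinks the ratio of dim probes. Outlier spots were dropped, spots of a probe averaged, and a gene represented by its brightest probe. A gene was measured when well above background, by the scanner's flag, in both channels. Levels in 1 channel were taken after Aquantile scaling. A bound sets the bright signal against the higher of the dim one and the lowest signal well above background.

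Each group held 1 array, so no test was made and no p-value is given. Processing was tested on simulated data. The changed genes there all lay in the brighter part of the simulated range and changed by more than the mark. Dim probes and changes near the mark were therefore not covered. The members, lists and processing were chosen with earlier results of these data known. All members and probes were named, and for the widest-ranging member the 3 genes most like it. The setting with the mean mock of a line was added after seeing the data. A further list of genes is not reported here.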

Additional observations from a re-analysis of the deposited data

How the results depend on the processing

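Of the 12 member values past 0.5, all kept their direction in every setting but median centring, where 9 did and where CDKN2C turned to 0.031 with bisamide for 24 h and 0.0833 for 48 h, and CDKN3 to 0.212 for 24 h. Centring moved the median of all measured genes on those arrays to 0.45 and 0.44. The 7 values higher became 11 with plain background subtraction, with the scanner ratio and with the series table, and 27 with median centring, and 1 and 0 at marks of 1.0 and 1.5. The 5 lower became 2 with median centring, 2 less the median of the other arrays, and 1 and 0 at 1.0 and 1.5. For the other settings, higher counts ran from 5 to 10 and lower counts from 4 to 7. The shares of all measured genes given above are for the main processing, so counts in other settings have no share beside them. Members measured in mock cells stayed at 7 in PC3, also without each mock array in turn (range 7 to 7), and reached 8 in C4-2 and 786-O by the weaker flag. Of 24 differences of a mock level from PC3, 18 moved by more than the spread among PC3 mocks with the 75th percentile and 12 with an offset of 0. No paired analysis was possible because there was a single array in a group. Dim probes limit CDKN1A in PC3 and CDKN2B outside it.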

Other observations

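Probes of genes named after CDKN2A were also read. CDKN2AIP, which encodes a binding partner of p14ARF, was measured on all 8 arrays with log2 ratios from -0.54 with miR-140-5p to 0.16 with miR-532-3p, the first past the mark of 0.5 under loess. CDKN2AIPNL, its paralogue, ran from -0.37 with miR-532-5p to 0.37 with miR-140-5p through its brighter probe. CDKN2A-AS1 was not well above background in both channels on any array. MTAP, the neighbour of CDKN2A, passed the mark once, with miR-532-3p in 786-O, at -0.67 through its brightest probe, while its other probes gave -0.41 and -0.17. The brightest probe was at -0.44 under median centring, where all measured genes of that array had a median of 0.17.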
